A study of Homo sapiens with 6 samples.

Results

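The 10 genes of polyamine synthesis and catabolism described here were ODC1, AMD1, SRM and SMS (synthesis), SAT1, SMOX and PAOX (catabolism) and OAZ1, OAZ2 and AZIN1 (control of ODC1). They were taken by symbol from the 62703 genes of the count data, and all 10 were among the 17901 genes with enough counts to be tested. The set was chosen by the siMED12 to siCtrl differences in counts within replicate numbers, so those differences are given as a description, with no p-value. Counts of calls among the 10, and their changes between fits, are given later as a description too and are no evidence of an effect. The data were poly(A) RNA-seq of 22Rv1, an established human prostate cancer cell line, cultured in serum-containing medium. Cells were transfected 24 h after seeding with 25 pmol of an ON-TARGETplus SMARTpool and Lipofectamine RNAiMAX, had fresh medium after 6 h and were harvested 3 days after transfection. The pool was non-targeting in the 3 siCtrl libraries and directed against MED12 in the 3 siMED12 libraries. MED12 belongs to the Mediator complex, which links transcription factors with RNA polymerase II, and activates the kinase module of that complex. Each arm used 1 siRNA pool in 1 cell line, and no other pool against MED12 was analysed here.

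Polyamines are small cations that bind nucleic acids and are needed for growth. ODC1 makes putrescine from ornithine, AMD1 makes the decarboxylated S-adenosylmethionine that donates the aminopropyl group, SRM adds that group to putrescine to give spermidine, and SMS adds another to give spermine. SAT1 acetylates spermidine and spermine, PAOX oxidises the acetylated forms, and SMOX oxidises spermine directly. Antizymes (OAZ1, OAZ2) bind ODC1 and direct it to the proteasome, and AZIN1 resembles ODC1 and takes the antizyme away. The prostate secretes large amounts of polyamines, and MYC, which binds the E-box sequence CACGTG with its partner MAX, is a known activator of ODC1.

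The promoter stretches that hold an E-box are shown first, as a description. MYC mRNA was lower in siMED12 in all 3 pairs and differed between replicate numbers, and a link between the E-box and the differences of the members was not tested. RefSeq promoter windows (GRCh38.p14, 250 bases before to 50 after a start site) were found for 7 of the 10 members, with 10 windows in all. AZIN1, PAOX and SMOX had no entry. CACGTG, which reads the same on both strands, was in a window of 2 members, SRM and ODC1. It was in 7.26% of all 35116 windows and in a window of 8.77% of the 27305 genes. The windows of AMD1, SMS, SAT1, OAZ1 and OAZ2 and the other window of ODC1 did not hold these letters. Of these genes without the E-box, AMD1, OAZ1 and OAZ2 were, like SRM and ODC1, lower in siMED12 in all 3 pairs. The stretches below are written 5′ to 3′ on the minus strand, on which both genes lie, with the E-box in capitals.
SRM, chr1:11060021-11060268, upstream of the gene: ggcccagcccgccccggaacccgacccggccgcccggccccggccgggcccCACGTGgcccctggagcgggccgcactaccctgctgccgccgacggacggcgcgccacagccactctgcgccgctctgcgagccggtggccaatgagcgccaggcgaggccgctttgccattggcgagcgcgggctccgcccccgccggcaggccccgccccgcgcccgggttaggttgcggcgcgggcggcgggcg
ODC1, chr2:10448015-10448120, within the gene but outside its annotated exons: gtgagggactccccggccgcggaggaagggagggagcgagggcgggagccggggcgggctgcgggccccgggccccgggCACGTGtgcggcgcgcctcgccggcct
ODC1, chr2:10447990-10448019, around the start of its shorter transcripts: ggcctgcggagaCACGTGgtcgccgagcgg
The first base of the E-box lay 199 bases before the start site of its window for SRM. In the ODC1 window, which belongs to a start site inside the gene, 1 E-box began 29 bases before the start site and the other at base 6 of the transcript. The label of the longer ODC1 stretch as outside exons rests on annotated untranslated regions only. It was not checked against every exon, so the stretch may still overlap an exon. A match of letters is a description and does not show that a factor binds there.

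The libraries held 16136699 to 17012788 counts, and 25802 to 27404 genes had a count. MED12 was 67.8, 77.7 and 72.6 CPM (CPM being read counts divided by the TMM-scaled library size, to a common total) in siCtrl and 23.9, 14.97 and 30.1 CPM in siMED12. The 8 luminal prostate markers reported here (HOXB13, KLK2, KLK3, FOLH1, KRT8, KRT18, EPCAM and CDH1) exceeded 10 CPM in every library. Their summed level was 2352 to 2575 CPM in siCtrl and 2161 to 2345 CPM in siMED12. KLK2, KLK3, KRT8 and KRT18 were lower and HOXB13 and CDH1 higher in every siMED12 library than in any siCtrl library, with KLK2 at 61.9 to 93.9 CPM in siCtrl and 18.8 to 38.3 CPM in siMED12, and the part of these differences in the results was not tested. Of 7 markers of other cell types, 4 (PTPRC, CD3E, PECAM1 and VWF) stayed below 1 CPM in every library, while COL1A1 reached 14.9 to 27.4 CPM and ALB 118 to 325 CPM. The summed level of these 7 genes was 199.9 to 344 CPM in siCtrl, against 146 to 261 CPM in siMED12, and its part in the results was not tested. The mitochondrially encoded share of counts followed the replicate number (4.43%, 6.31% and 10.0% in siCtrl replicates 1, 2 and 3, and 4.79%, 6.03% and 10.1% in siMED12), and its part in the results was not tested either. In bulk RNA, fewer cells and less RNA per cell cannot be told apart. The study describes its experiments as done in biological replicates, but nothing says of these libraries whether they came from separate cultures. The p-values therefore measure only the spread between these libraries. In fits that include the replicate number, they measure only the spread that remains once differences between the numbers are taken out.

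Among the synthesis genes, ODC1, AMD1 and SRM were lower in siMED12 than in siCtrl in all 3 pairs of libraries with the same replicate number, and SMS was not. ODC1 (ENSG00000115758.14; chromosome 2, 10439968 to 10448327, minus strand, GRCh38) carries out the first and tightly controlled step. It was 319, 409 and 348.5 CPM in siCtrl replicates 1, 2 and 3 and 209.9, 264 and 239.8 CPM in siMED12. Every siMED12 library lay below every siCtrl library, and replicate 2 was the highest in both groups. The mean was 359 CPM ± 45.6 (SD, n = 3) in siCtrl and 238 CPM ± 27.1 (SD, n = 3) in siMED12. The pairs differed by -34.2%, -35.4% and -31.2%, a range far narrower than that of the levels themselves.

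AMD1 (ENSG00000123505.19; chromosome 6, 110874770 to 110898879, plus strand) encodes S-adenosylmethionine decarboxylase, the other controlled enzyme of the pathway. Its levels were 664.5, 510.2 and 383 CPM in siCtrl, against 418, 289 and 258 CPM in siMED12. The groups overlapped, since siMED12 replicate 1 lay above siCtrl replicate 3, but each siMED12 library lay below the siCtrl library of its own number. The pair differences were -37.05%, -43.3% and -32.8%. Group means of 519 CPM ± 141 and 322 CPM ± 85.1 (SD, n = 3 each) therefore carried a wide spread that belonged to the replicate numbers.

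SRM (ENSG00000116649.10; chromosome 1, 11054584 to 11060020, minus strand), spermidine synthase, had the largest fold difference of the 10 genes. The siCtrl libraries held 129, 142 and 113 CPM and the siMED12 libraries 77.8, 79.8 and 63.4 CPM. The groups did not overlap, and replicate 3 was the lowest in both. Pairs differed by -39.8%, -43.9% and -44.01%, and the means were 128 CPM ± 14.5 and 73.7 CPM ± 8.93 (SD, n = 3 each).

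SMS (ENSG00000102172.16; chromosome X, 21940709 to 21994837, plus strand), spermine synthase, performs the same transfer as SRM on the next substrate. Its values were 44.5, 45.4 and 37.7 CPM in siCtrl, against 38.9, 45.5 and 39.6 CPM in siMED12. The groups overlapped, and the pairs differed in both directions (-12.6%, 0.30% and 5.01%). The SMS counts are uncertain, since 20.2% of its 50-base stretches also occur in a processed pseudogene on chromosome 1 (ENSG00000213080, 160894980 to 160896076) to which 571 to 752 counts per library were assigned, against 618 to 778 for SMS. The log2 difference of that pseudogene was 0.02 (SE 0.13), also close to 0.

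**Figure D1:**
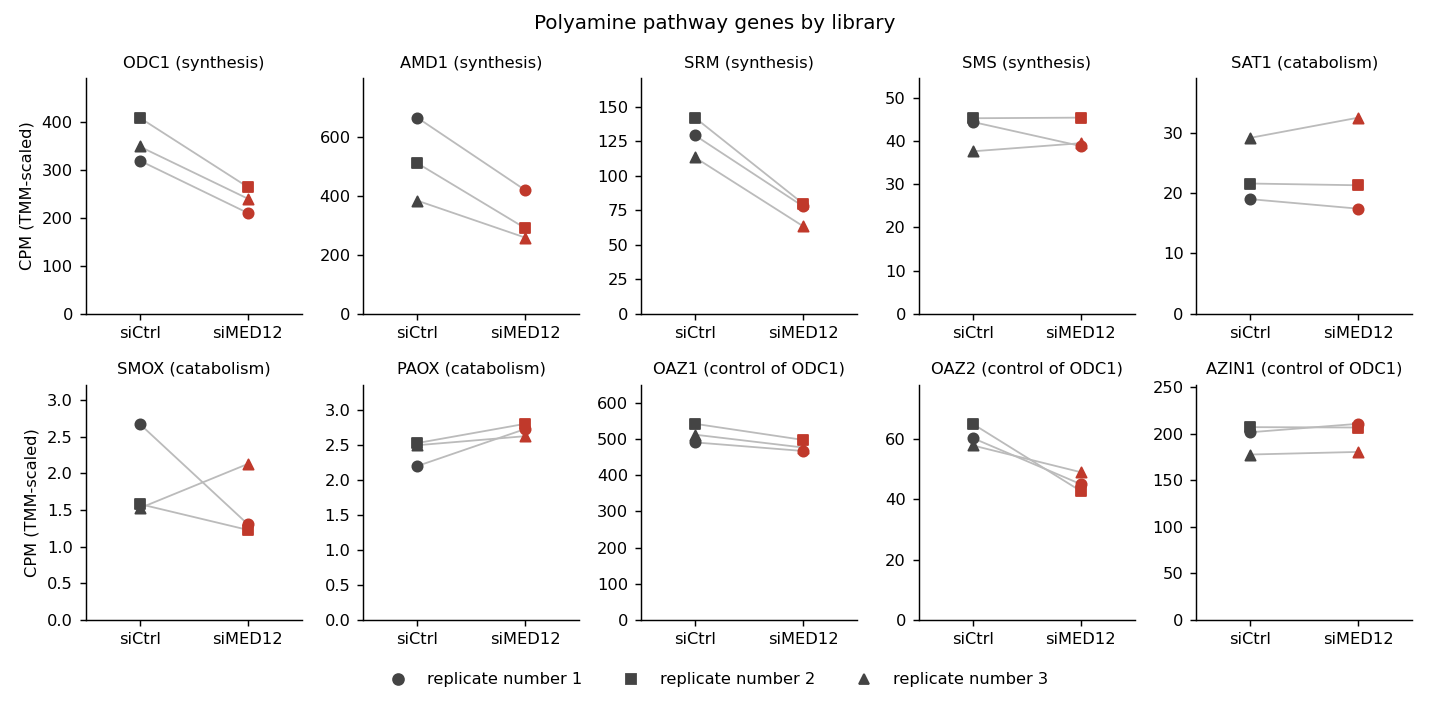
Level of each gene in every library, in CPM on axes that start at 0, with siCtrl in grey and siMED12 in red and a line joining libraries of the same replicate number. The lines of ODC1, AMD1, SRM, OAZ1 and OAZ2 all slope down, and those of PAOX all slope up over a range of 2.20 to 2.81 CPM.

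Of the catabolic genes, SMOX and PAOX were expressed at far lower levels than the synthesis genes and SAT1 at a level below SMS in every library, and none was lower in siMED12 in all 3 pairs. SAT1 (ENSG00000130066.17; chromosome X, 23783173 to 23786210, plus strand), the rate-limiting acetyltransferase of polyamine breakdown, was 18.98, 21.6 and 29.1 CPM in siCtrl, against 17.4, 21.3 and 32.5 CPM in siMED12. The libraries of replicate 3 were the highest in both groups, and the pairs differed by -8.29%, -1.33% and 11.5%. SMOX (ENSG00000088826.18; chromosome 20, 4120980 to 4187747, plus strand), spermine oxidase, had 25 to 45 counts in the siCtrl libraries and 21 to 34 in siMED12. Its CPM were 2.68, 1.58 and 1.52 in siCtrl and 1.31, 1.23 and 2.13 in siMED12, so that the direction differed between pairs. The counting error was 14.9% to 21.8% per library, and the SE of the log2 difference was 0.37 (edgeR without a replicate term). A difference in SMOX of about the size of that SE or smaller was not detectable with these libraries.

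PAOX (ENSG00000148832.16; chromosome 10, 133379261 to 133391694, plus strand), the peroxisomal oxidase of acetylated polyamines, was the gene of the 10 that was higher in siMED12 in all 3 pairs. It had 2.20, 2.53 and 2.50 CPM in siCtrl, against 2.73, 2.81 and 2.63 CPM in siMED12, and the groups did not overlap. The pair differences of 24.1%, 10.9% and 5.19% rest on 37 to 48 counts per library with a counting error of 14.4% to 16.4%. An unnamed protein-coding gene (ENSG00000254536) shares 1373 exonic bases with PAOX on the same strand and 56.3% of its 50-base stretches, so reads of these genes cannot be cleanly told apart. The log2 difference of that gene was -0.23 (SE 0.32), in the other direction, on 34 to 69 counts per library.

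Of the genes that control ODC1 protein, both antizymes were lower in siMED12 in every pair, and the antizyme inhibitor was not. OAZ1 (ENSG00000104904.12; chromosome 19, 2269509 to 2273490, plus strand), whose translation by frameshifting responds to polyamines, was 491, 543 and 513 CPM in siCtrl, against 468, 498 and 477 CPM in siMED12. The pair differences were small and close together at -4.83%, -8.22% and -6.94%, and the groups overlapped. OAZ2 (ENSG00000180304.14; chromosome 15, 64687573 to 64703281, minus strand), a related antizyme, was 60.4, 65.2 and 57.97 CPM in siCtrl, against 45.1, 42.8 and 49.1 CPM in siMED12. Its groups did not overlap, and its pairs differed by -25.4%, -34.3% and -15.4%, a wider range than for ODC1 or SRM. OAZ1 shares 236 exonic bases with JSRP1 and OAZ2 shares 554 with a long non-coding RNA gene on the opposite strand, and the use of strand in counting was not stated. JSRP1 had 139 to 189 counts per library and the RNA gene 1 to 12, against at least 7624 for OAZ1 and 732 for OAZ2.

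AZIN1 (ENSG00000155096.15; chromosome 8, 102826111 to 102893864, minus strand) was 201, 207 and 177.5 CPM in siCtrl, against 210.5, 206.5 and 180.3 CPM in siMED12. The 2 groups covered nearly the same range, with replicate 3 the lowest in both, and the pairs differed by 4.50%, -0.19% and 1.56%.

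On the log2 scale of edgeR's fit, the siMED12 to siCtrl difference was -0.80 (SE 0.13) for SRM, -0.69 (SE 0.23) for AMD1, -0.59 (SE 0.12) for ODC1 and -0.42 (SE 0.10) for OAZ2. The other members lay between -0.31 (SE 0.37, SMOX) and 0.18 (SE 0.24, PAOX). Without siCtrl replicate 1 these were -0.022 for SMOX and 0.094 for PAOX. The median of the 10 was -0.21 with 7 below 0, beside a median of 0.02 over all genes tested. With the replicate number as a block the differences were nearly the same while the SE became 0.05 for SRM and 0.04 for both AMD1 and ODC1. Since this contrast was part of how the genes were chosen, the counts that follow are given beside those of all genes and nothing is read from them. Without the block, 1 of the 10 passed an adjusted p of 0.05 and was lower (SRM), beside 0.413% of all genes, and 0 were higher, beside 0.151%. Without adjustment 4 were lower at p below 0.05, beside 7.93% of all genes, and 0 higher, beside 7.65%. After adjustment the DESeq2 Wald test called 3 lower, beside 3.42% of the 14428 genes that it gave an adjusted p, and 0 higher, beside 2.29%. Limma-trend called 1 lower, beside 0.436%, and 0 higher, beside 0.151%. With the block 5 were lower (SRM, AMD1, ODC1, OAZ2 and OAZ1), beside 16.2% of all genes, and 0 were higher, beside 17.1%. The groups did not overlap for 3 members lower in siMED12 (ODC1, SRM and OAZ2), beside 10.9% of all genes, and for 1 member higher (PAOX), beside 11.2%. The SRM call without the block was lost in 5 of the 6 fits that left out a library, in which 0 members passed; it was kept without siCtrl replicate 3.

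**Figure D2:**
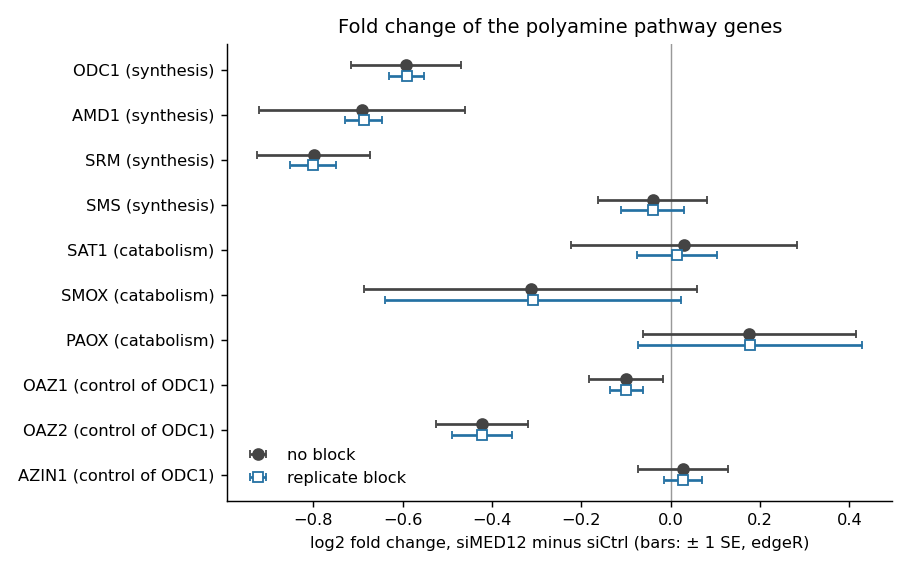
Log2 fold change of siMED12 against siCtrl for the 10 genes, with bars of 1 SE, from edgeR without (filled circles) and with (open squares) the replicate number as a block. The points of each gene coincide, and the bars of ODC1, AMD1 and SRM shorten with the block.

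Ratios of counts within a library need no scaling between libraries, and they put the enzymes of neighbouring steps side by side. The log2 ratio of SMS to SRM counts was -1.54, -1.65 and -1.59 in siCtrl and -1.0, -0.81 and -0.68 in siMED12, a difference of 0.54, 0.84 and 0.91 in the 3 pairs. SRM counts were thus lower relative to those of the next enzyme of the pathway in every pair. The ratio differences here and below restate the pair differences by which the genes were chosen, and are a description only. The log2 ratio of ODC1 to OAZ1, the enzyme to its antizyme, was -0.62, -0.41 and -0.56 in siCtrl and -1.16, -0.92 and -0.99 in siMED12, with pair differences of -0.53, -0.51 and -0.44. The log2 ratio of AZIN1 to OAZ1, the inhibitor to the antizyme, was higher by 0.13 (0.14, 0.12 and 0.13 in the pairs, SD 0.0071), a small difference. Counting error alone was 1.68% to 1.86% per library for AZIN1 and 1.08% to 1.145% for OAZ1. The closeness of the 3 pairs is therefore no measure of precision. The log2 ratio of SAT1 to ODC1, breakdown to synthesis, was higher by 0.48, 0.61 and 0.70. The ratios of SMS to SRM and of ODC1 to OAZ1 did not overlap between the groups, whereas those of AZIN1 to OAZ1 and of SAT1 to ODC1 did.

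**Figure D3:**
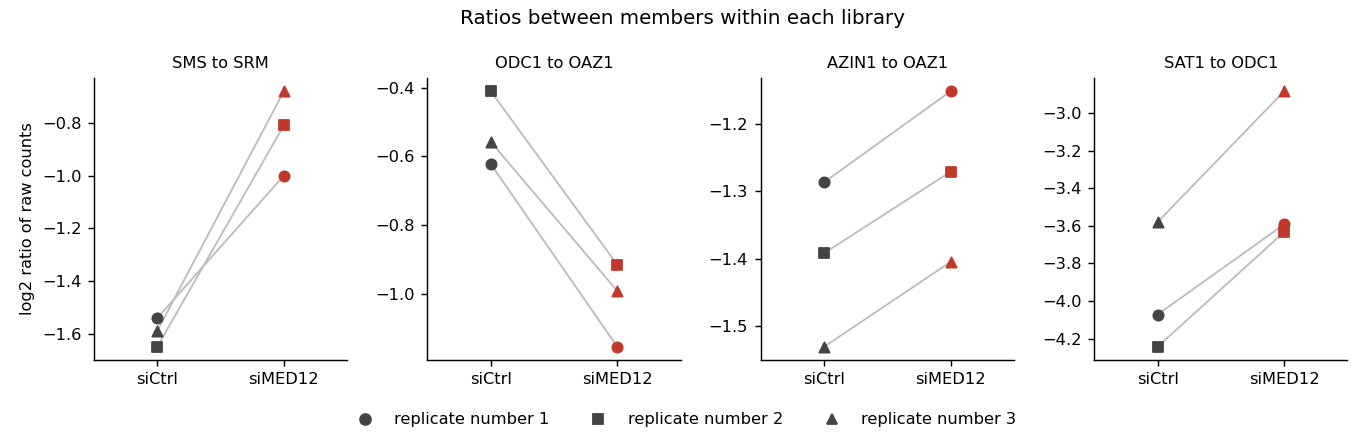
Log2 ratio of raw counts between pairs of members in each library, siCtrl in grey and siMED12 in red, with lines joining the same replicate number and a separate axis for each ratio. The ODC1 to OAZ1 lines slope down by 0.44 to 0.53 and the AZIN1 to OAZ1 lines run almost parallel.

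The genes were chosen by differences taken within replicate numbers, a contrast that leaves out the level differences between the numbers. Those were tested with treatment held in the model. At an adjusted p below 0.05 (edgeR), 5 of the 10 members differed between replicate numbers, beside 47.1% of all genes, so the members did so about as often as genes in general. AMD1 had the lowest p, with mean levels of 541, 399.8 and 320.4 CPM in numbers 1, 2 and 3 (adjusted p 7.8e-15). SAT1 took the opposite order, with 18.2, 21.4 and 30.8 CPM (adjusted p 6.9e-07), and a log2 difference of 0.76 between numbers 3 and 1 that was as large as that of AMD1 (-0.75). ODC1 was highest in number 2 (265, 336 and 294 CPM, adjusted p 1.22e-06). SRM was lowest in number 3 (104, 111 and 88.3 CPM, adjusted p 0.000112), as was AZIN1 (206, 207 and 179 CPM, adjusted p 0.00107). For AMD1, SAT1, ODC1, SRM and OAZ1 the order of the numbers was the same in siCtrl and siMED12. SMS, SMOX, PAOX, OAZ1 and OAZ2 did not pass this test, with adjusted p from 0.0705 to 0.953.

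MYC mRNA was lower in siMED12 within each pair and differed widely between replicate numbers. It was 217, 51.7 and 24.3 CPM in siCtrl replicates 1, 2 and 3 and 92.5, 21.3 and 13.02 CPM in siMED12. Its pair differences were -57.4%, -58.8% and -46.3%, and its means by number were 155, 36.5 and 18.6 CPM. The treatment call rested on the block: the groups overlapped and the log2 difference was -1.21 (SE 0.89, adjusted p 0.586 in edgeR) without it, and -1.18 (SE 0.07, adjusted p 3.91e-17) with it. Across replicate numbers the mean level of AMD1 had the same order as that of MYC, SAT1 had the opposite order, and ODC1 and SRM were highest in number 2. The part of MYC in the differences of the polyamine genes was not tested.

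In CPM per kilobase of exon, the siCtrl level of OAZ1 was 150 ± 7.54, of ODC1 108.5 ± 13.8, of SRM 67.7 ± 7.64 and of AMD1 50.95 ± 13.8 (SD, n = 3 each). AZIN1 stood at 31.9 ± 2.55, SMS at 19.96 ± 1.98, SAT1 at 9.36 ± 2.13 and OAZ2 at 7.98 ± 0.48. The lowest levels were those of PAOX (1.07 ± 0.08) and SMOX (0.65 ± 0.22). Antizyme 1 and the synthesis enzymes ODC1, SRM and AMD1 thus stood at the top, above AZIN1 and the remaining synthesis enzyme SMS, with OAZ1 above 98.8% and ODC1 above 98.1% of the genes tested, and the oxidases at the bottom, with PAOX above 23.9% and SMOX above 16.5%. Neighbours in this order had siCtrl values that did not overlap, except SRM with AMD1 and SAT1 with OAZ2. In siMED12 the order was the same but for AZIN1 (32.5 ± 2.68), which then stood above AMD1 (31.6 ± 8.35) by less than the spread of either. Dividing by the longest transcript in place of all exons kept the siCtrl order.

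**Figure D4:**
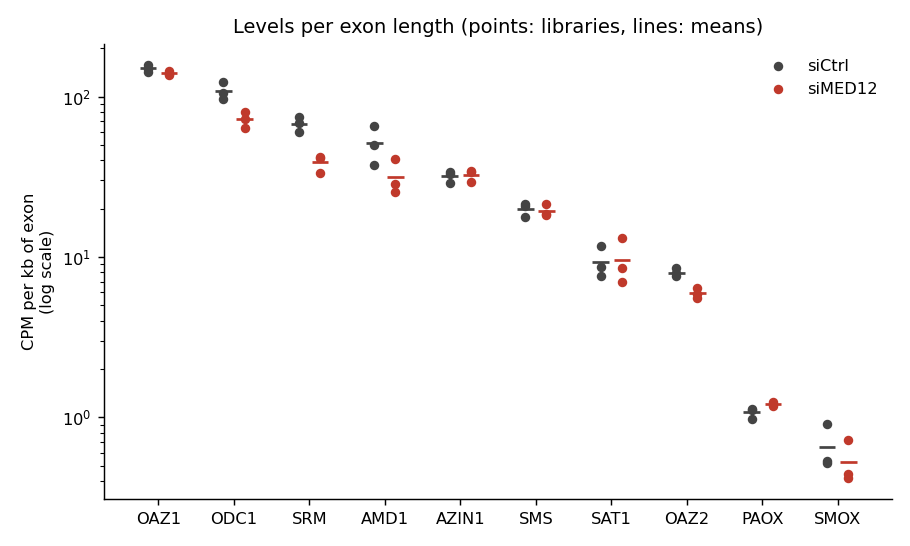
CPM per kilobase of exon on a log axis for the 10 genes in the order of their siCtrl means, with a point per library and a line at the mean of siCtrl (grey) and siMED12 (red). Levels run from 150 for OAZ1 to 0.65 for SMOX in siCtrl.

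Across the 6 libraries, among 10670 genes with a mean of at least 10 CPM, the log2 CPM of SRM ran closest to that of MTHFD2 (a mitochondrial folate enzyme; Pearson r 0.9995), GRWD1 (ribosome assembly), HSP90AA2P (an HSP90 pseudogene, so its reads are uncertain), MPC1 (mitochondrial pyruvate carrier) and ENDOG (a mitochondrial nuclease; r 0.9967). The genes closest to ODC1 were ESRRA (a nuclear receptor; r 0.9979), METAP1, DVL1, DOLPP1 and SLC3A2 (r 0.9925). No member of the polyamine set was among these 10 genes, but SLC3A2 is one of the other polyamine-related genes described below. Their own differences were smaller, from -22.6% (GRWD1) to -29.0% (ENDOG) for the SRM group and from -12.3% (METAP1) to -25.0% (SLC3A2) for the ODC1 group. Among the members themselves ODC1 and OAZ1 were most alike (r 0.934), followed by ODC1 and SRM (r 0.89), and SAT1 and AZIN1 ran opposite (r -0.923). These are descriptions over 6 libraries that share treatment and replicate number.

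A further 40 genes feed, drain or move polyamines, and 33 of them had enough counts to be tested. Without the block 0 genes rose and 0 fell past an adjusted p of 0.05 (edgeR), while 1 was higher and 10 lower at an unadjusted p below 0.05, beside 7.65% and 7.93% of all genes. After adjustment the DESeq2 Wald test called 0 higher and 6 lower, beside 2.29% and 3.42% of the genes it gave an adjusted p. Limma-trend called 0 in either direction after adjustment, and 1 higher and 10 lower without it, beside 7.7% and 7.89%. In the blocked fit 14 of the 33 fell and 2 rose, beside 16.2% and 17.1% of all genes. The median log2 difference of the 33 was -0.20 with the block, beside 0.02 over all genes. All adjusted p-values named for these genes below are from the blocked fit.

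In ornithine and arginine supply 4 of 6 tested genes were called lower with the block, beside 16.2% of all genes, and all 6 lay below 0. Without the block 0 of the 6 were called. SLC7A1, the main cationic amino acid importer, fell by 0.61 on the log2 scale (SE 0.05, adjusted p 9.07e-14), from 207 CPM ± 24.8 to 136 CPM ± 19.8 (SD, n = 3 each). ARG2, the mitochondrial arginase that makes ornithine, fell by 0.71 (SE 0.15, adjusted p 0.00021), ALDH18A1, which makes the precursor of proline and ornithine, by 0.34 (SE 0.05, adjusted p 4.51e-07), and OAT, ornithine aminotransferase, by 0.35 (SE 0.06, adjusted p 1.28e-05). In hypusine formation, the use of spermidine to modify EIF5A, 2 of 4 were called lower, beside the same 16.2%, and all 4 lay below 0. EIF5A itself fell by 0.32 (adjusted p 1.29e-08) and DOHH, the hydroxylase of the last step, by 0.36 (adjusted p 0.000395), while DHPS, the first enzyme, differed by -0.22 (SE 0.16, adjusted p 0.313).

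Of the 5 genes of S-adenosylmethionine supply 2 were called lower with the block, beside 16.2% of all genes, and only these 2 lay below 0. MAT2A, the synthase, fell by 0.23 (adjusted p 6.41e-06) and AHCY by 0.16 (adjusted p 0.00265). Both overlapped between the groups, and neither was called without the block. The median log2 difference of the 5 was 0.03, beside 0.02 over all genes. In the salvage of methylthioadenosine, the by-product of SRM and SMS, APIP fell by 0.25 (adjusted p 0.00874) and ENOPH1 by 0.20 (adjusted p 0.00181), whereas ADI1 rose by 0.18 (adjusted p 0.00127) and MTAP, the first enzyme, differed by -0.10 (adjusted p 0.202). Of 7 tested transport genes 3 were called lower, beside 16.2% of all genes. They were SLC22A3 (-0.72, adjusted p 9.63e-05), SLC47A1 (-0.58, adjusted p 3.38e-08) and SLC3A2 (-0.41, adjusted p 3.82e-11). The lysosomal polyamine exporter ATP13A2 differed by 0.04 (SE 0.05, adjusted p 0.609). AGMAT, annotated as agmatinase, fell by 1.15 (SE 0.23, adjusted p 9.01e-05), from 4.66 CPM ± 0.42 to 2.09 CPM ± 0.30. ALDH9A1, an aldehyde dehydrogenase that acts on the aldehyde formed from putrescine, rose by 0.35 (SE 0.05, adjusted p 1.03e-07), and was higher by 29.6%, 24.3% and 29.5% in the 3 pairs.

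**Figure D5:**
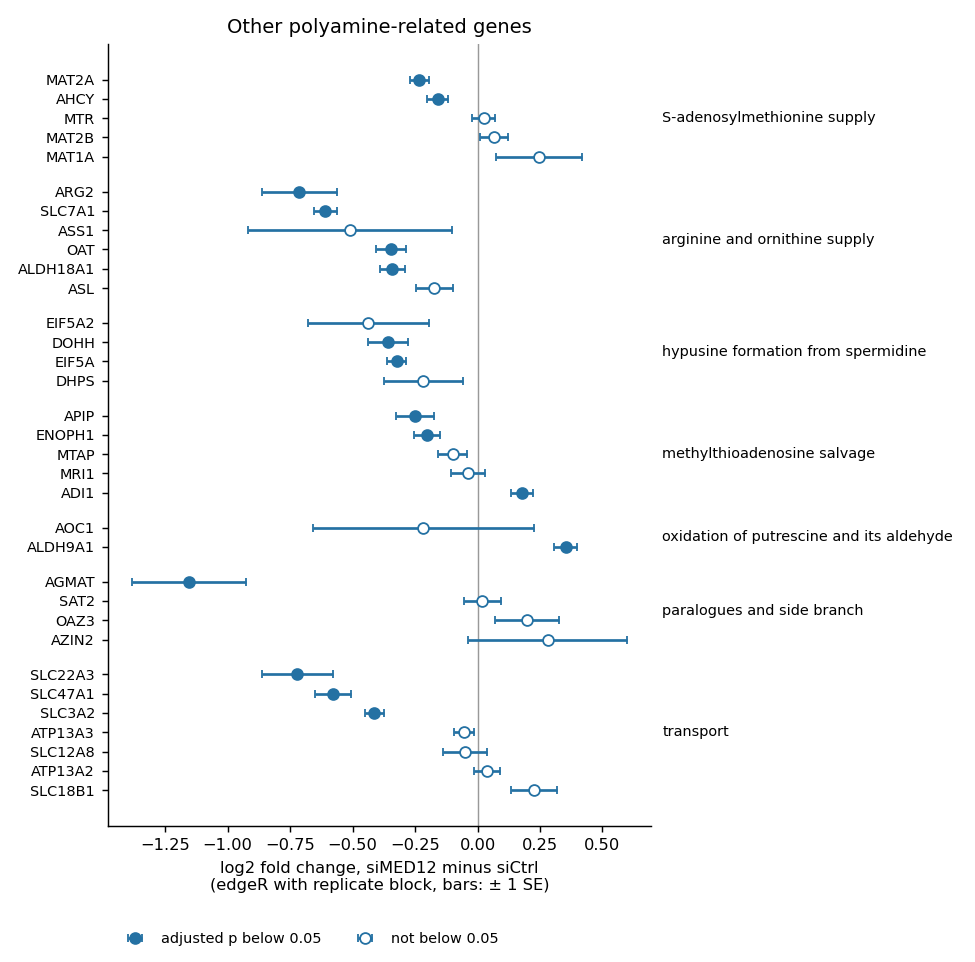
Log2 fold change of siMED12 against siCtrl for the 33 tested polyamine-related genes that are not among the 10, by function, from edgeR with the replicate number as a block and bars of 1 SE. Filled points passed an adjusted p of 0.05; 14 of them lie left of 0 and 2 right of it.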

How the data were processed

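Poly(A) RNA of 22Rv1 cells was sequenced in 6 strand-specific libraries, whose groups and replicate numbers are those of the labels. According to the methods, the authors used Rsubread with GRCh38.p13 and a Gencode annotation. How reads with several matches, and strand, were handled was not stated. The deposited count of a gene is a raw read count. The deposited log2 CPM values were recomputed from the counts (edgeR filter, TMM, prior count 2) and differed by at most 4.96e-09.

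The members and lists were chosen with earlier results of these data known. The members, called other pathway genes, MED12 as the check of the targeted gene, MYC, and the 5 genes most correlated with SRM and with ODC1 were named by rule. DHPS, MTAP and ATP13A2, which were not called, were named outside that rule, while other uncalled genes of the list were not. Values of a few listed genes are not reported here.

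Counts were tested with edgeR 4.0.16 in R 4.3.3 (filterByExpr, TMM, quasi-likelihood F-test, two-sided, Benjamini-Hochberg over all 17901 genes, threshold 0.05) with treatment alone. Alternatives were the replicate block, library size only, DESeq2 size factors, other filters, the DESeq2 Wald test (1.42.0), limma-trend (3.58.1) and leaving out libraries. For replicate numbers, a likelihood ratio test of DESeq2 was added after seeing the data. The procedure was run on simulated counts that had differences between replicate numbers. A minimum recovery of changed genes was required of the blocked fit only, and the fit without the block was held only to the right direction of change. Deviations from group means of log2 CPM correlated at 0.532, 0.373 and 0.643 for same-numbered libraries and at -0.46 to -0.0233 for the others, so the numbers were taken to pair the libraries. Replicates of a group were not duplicates (chi-square per degree of freedom 10.3 to 40.7). Coordinates, exon lengths and shared 50-base stretches came from a Gencode annotation of GRCh38. Counting errors are the square root of the count and cover counting only.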

Additional observations from a re-analysis of the deposited data

How the results depend on the processing

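With 3 libraries per group and a large spread between replicate numbers, the number of calls depended on the block. The 1 member called lower became 0 with library size only, 3 with no filter beyond 1 count, 3 with the DESeq2 Wald test, 5 with the replicate block, 4 with the block and library size only and 5 with the block and DESeq2 size factors. It ranged from 0 to 1 in unblocked fits without a library and from 4 to 5 in blocked fits without a replicate number. The 0 other pathway genes called lower became 2 with no filter, 6 with the Wald test, 14 with the block, 14 with the block and library size only and 15 with the block and DESeq2 size factors, and ranged from 13 to 14 in blocked fits without a number. The 0 called higher became 2, 3 and 2 in the same blocked fits, and 2 in each blocked fit without a number. Of 190 alternative member fold changes, 146 kept direction and side of the threshold and 12 changed sign, in SMS, SAT1, SMOX and AZIN1. The SMS log2 difference was 0.0011 with the block and library size only. Without a library the unblocked value ranged from -0.14 to 0.0087 for SMS, -0.26 to 0.22 for SAT1, -0.60 to -0.022 for SMOX, 0.094 to 0.21 for PAOX and -0.0382 to 0.096 for AZIN1. Where leaving out a number turned it with the block, it was 0.0183 for SMS, -0.0702 for SAT1, 0.0645 for SMOX and -0.0086 for AZIN1. ODC1, AMD1, SRM, OAZ1 and OAZ2 were below 0 in all 19 alternatives each, with the widest range for AMD1 (-0.94 to -0.49). The 5 members called between replicate numbers became 6 with DESeq2 size factors and with no filter, and 5 under the other alternatives. The siCtrl order of the levels was kept with the longest transcript and with library size only. The levels themselves moved beyond the spread of replicates with the longest transcript, for example from 9.36 to 20.5 for SAT1 and from 67.7 to 101.8 for SRM. Leaving out a replicate number moved each ratio difference by less than the SD of its 3 pairs. A Wald test on replicate numbers was not run, since DESeq2 tests 1 coefficient at a time. The cause of these differences was not tested.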
